A study of Rattus norvegicus with 12 samples.

Results

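The VEGF and angiopoietin system was followed through 7 genes: the ligand Vegfa, its receptors Kdr and Flt1, the angiopoietin receptor Tek with its relative Tie1, the ligand Angpt2, and the endothelial adhesion molecule Pecam1. Every probe set that the annotation of the Affymetrix RAE 230A array assigns to a single one of these genes was taken, which gave 9 of the 15866 probe sets on the array that are not controls. These 9 probe sets cover 6 of the 10411 genes named on the array: 3 measure Flt1, 2 measure Vegfa, and Kdr, Tie1, Angpt2 and Pecam1 have 1 each. Tek was not analysed here. No probe set named a member together with another gene, and all 9 passed the filter on low signals.

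RNA was taken from lung tissue of male Wistar rats aged 12 weeks, each on its own array. Streptozotocin, a toxin of the insulin-producing beta cells, had been injected into the 7 diabetic rats at 8 weeks of age, which gave 4 weeks of diabetes. The 5 normal rats were injected with buffer alone at that age. The unit is the MAS 5.0 signal, an intensity on a linear scale that summarises the probes of a probe set, and each array had been scaled to a trimmed mean of 500. Signals of different probe sets are not comparable with each other, so the level of a single probe set is compared only with itself across animals. Sums over a list of markers are weighted towards its brightest probe sets and are given as a description. As the lung was taken in bulk, fewer cells of a type and less RNA per cell cannot be told apart.

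VEGF-A is secreted in the lung mainly by alveolar epithelial cells and acts on neighbouring capillaries. Its main signalling receptor on endothelial cells is VEGFR2, the product of Kdr, whereas VEGFR1, the product of Flt1, binds VEGF-A tightly, signals weakly and also exists as a soluble form that traps the ligand. The angiopoietins act on the receptor TIE2, encoded by Tek: angiopoietin 1 stabilises vessels, angiopoietin 2 is released by activated endothelium and mostly opposes it, and TIE1 modulates TIE2. PECAM-1 (CD31) joins neighbouring endothelial cells and is a general marker of them.

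The sequence before the gene is shown for Vegfa, Kdr and Tie1, the members for which it could be read. It was read from the RefSeq promoter table (build GRCr8), and the 120 bases shown end where the RefSeq gene of the same build begins. They lie at chr9:22452734-22452853 (+ strand) for Vegfa, chr14:32571911-32572030 (+ strand) for Kdr and chr5:137305048-137305167 (- strand) for Tie1. The start that the table uses lies 0, 32 and 66 bases inside the gene for Vegfa, Kdr and Tie1, and Vegfa has 2 starts in the table, of which the outer one is shown. For Flt1 the start lies 380 bases inside the gene, so the bases before the gene could not be read. Tek, Angpt2 and Pecam1 had no entry. Capitals mark matches, on either strand, to the core of the hypoxia-inducible factor site (ACGTG or GCGTG), the core of the ETS factor site (AGGAAG or CGGAAG), the GC box (GGGCGG) or the TATA box (TATAAA), and no capital belongs to more than 1 match.
Vegfa: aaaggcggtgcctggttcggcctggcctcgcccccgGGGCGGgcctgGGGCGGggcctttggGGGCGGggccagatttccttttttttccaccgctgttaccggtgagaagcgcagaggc
Kdr: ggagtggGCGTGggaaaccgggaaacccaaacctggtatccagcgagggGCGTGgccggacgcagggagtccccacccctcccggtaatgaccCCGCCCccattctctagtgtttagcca
Tie1: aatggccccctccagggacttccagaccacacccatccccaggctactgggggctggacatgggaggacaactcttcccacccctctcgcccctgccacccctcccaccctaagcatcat

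Within these 120 bases, Vegfa had 3 GC boxes and no match to the other motifs. Kdr had 2 hypoxia-inducible factor cores and 1 GC box, and Tie1 had no match to any of the motifs searched. Of all 33469 windows in the table, the 120 bases before the start held a hypoxia-inducible factor core in 23.0%, an ETS core in 23.7%, a GC box in 23.7% and a TATA box in 6.66%, so the matches are a description of these letters only.

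Diabetic animal 6 stood apart as an array: its mean correlation with the other diabetic arrays was 0.948, and those of the other 6 lay between 0.963 and 0.971.

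Diabetic and normal lung were compared for each probe set with limma on the log2 signal, with Benjamini-Hochberg adjustment over all 9520 probe sets tested. In limma, an adjusted p of 0.05 was passed by 0 of the 9 probe sets of the system, where 16 of the 9520 passed (0.168%), 0.0945% as higher and 0.0735% as lower. An exact permutation test, adjusted in the same way, called 0 of all 9520, so its 0 among the 9 adds nothing. The 792 splits of the animals limit how small its p can be. At an unadjusted p under 0.05, 2 of the 9 were called by limma, a Vegfa probe set and Angpt2, and both were lower in diabetic lung, where 16.4% of all probe sets were called in either direction, 7.75% as higher and 8.68% as lower. In total 7 of the 9 changes were below 0, against 52.8% of all probe sets. The median log2 change was -0.13 over the 9 probe sets and -0.01 over all probe sets tested, and the groups overlapped for each of the 9, while they did not for 2.04% of all. The 3 Flt1 and the 2 Vegfa probe sets share their gene, so the 9 are not independent. Without diabetic animal 6, limma's adjusted p was under 0.05 for 0 of the 9 probe sets, and 1, Vegfa 1370081_a_at, had an unadjusted p under 0.05.

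**Figure D1:**
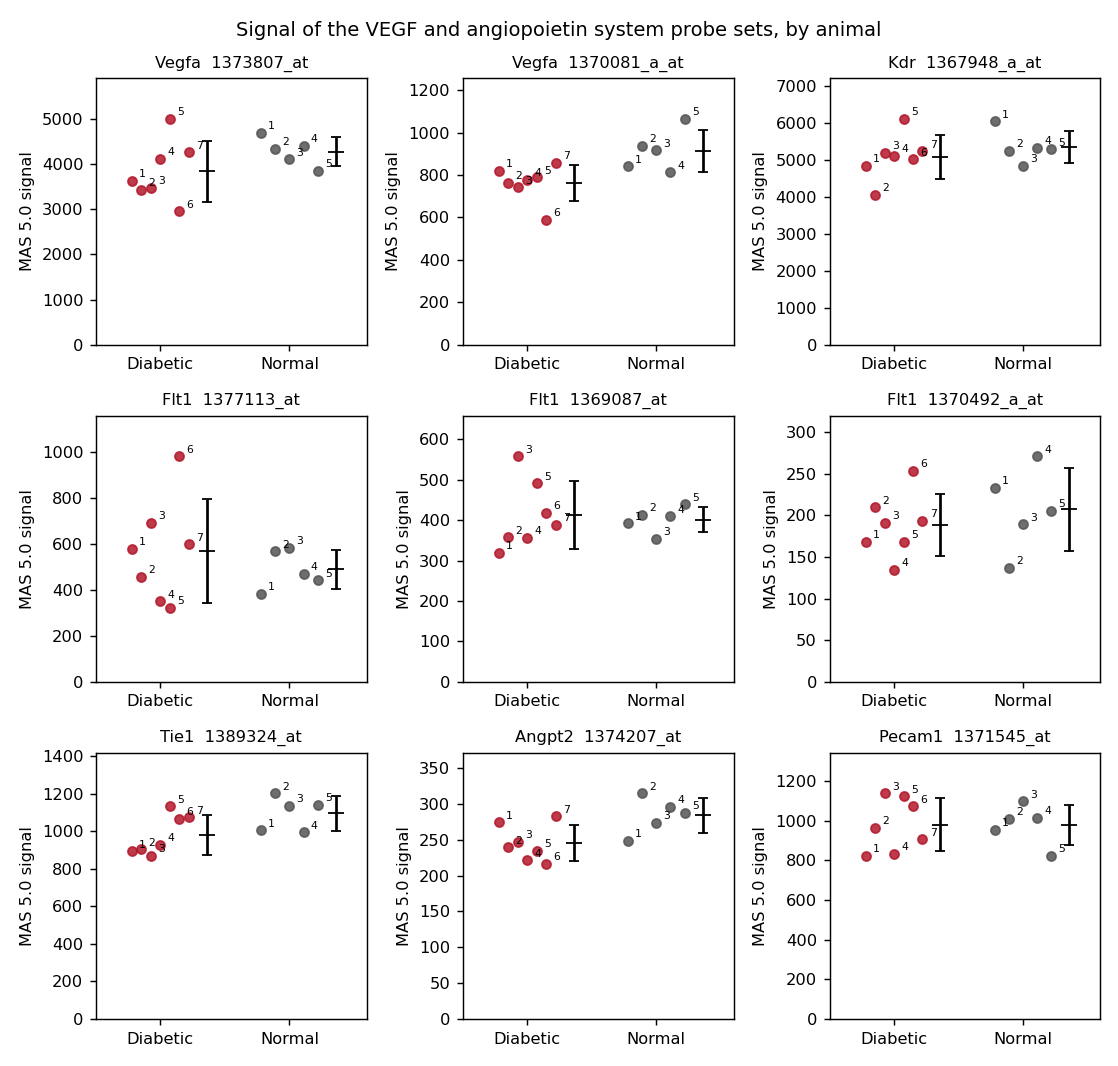
MAS 5.0 signal (linear axis from 0) of the 9 probe sets in each of 7 diabetic animals (red, left) and 5 normal animals (grey, right), numbered as in the labels, with the mean and SD in black. The groups overlap in every panel, and diabetic animal 6 is the lowest of all 12 for both Vegfa probe sets and the highest for Flt1 1377113_at.

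Vegfa was measured by 2 probe sets, and both were lower on average in diabetic lung, without passing the adjusted threshold. The probe set 1370081_a_at, of a type that matches several transcripts of a gene, had a lowest signal of 588.1, a median of 777.9 and a highest of 856.7 in the 7 diabetic animals, against 840.3, 937.3, 916.2, 812.2 and 1063.5 in normal animals 1 to 5. Thus 5 of the 7 diabetic animals lay below every normal animal, and 3 of the 5 normal animals lay above every diabetic one. The mean signal was 763 ± 85.6 (SD, n = 7) in diabetic and 914 ± 98.4 (SD, n = 5) in normal lung. The log2 change was -0.26 (SE 0.10) with a 95% interval of -0.47 to -0.06, which is 0.722 to 0.961 of the normal level (limma adjusted p = 0.199). A two-sided exact permutation test gave an unadjusted p of 0.0114 for this probe set.

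The other Vegfa probe set, 1373807_at, had a lowest signal of 2953, a median of 3630.4 and a highest of 5001 in diabetic animals, against 4693, 4335, 4109, 4409 and 3853 in normal animals 1 to 5. Here 4 of the 7 diabetic animals lay below every normal animal and 1, diabetic animal 5, lay above all of them. The mean was 3840 ± 676 (SD, n = 7) in diabetic and 4279.8 ± 317 (SD, n = 5) in normal lung, with a log2 change of -0.17 (SE 0.11, 95% interval -0.40 to 0.06, limma adjusted p = 0.450). Both Vegfa probe sets were lowest in diabetic animal 6, and leaving that animal out gave -0.20 for 1370081_a_at (limma adjusted p = 0.230) and -0.11 for 1373807_at (adjusted p = 0.590).

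The Vegfa values have to be read beside a measure of the RNA. The GAPDH ratio, the signal of its 3' control probe set over that of its 5' one, which depends on how complete the labelled RNA is, averaged 1.15 ± 0.0710 (SD, n = 7) in diabetic and 1.32 ± 0.0778 (SD, n = 5) in normal lung (exact permutation test, two-sided, p = 0.00505). Among the 7 diabetic animals, the signal of Vegfa 1370081_a_at was lower the higher this ratio was (both on the log2 scale), with Pearson's r = -0.98 (exact permutation test, p = 0.000198, adjusted over 9 probe sets p = 0.00179) and Spearman's rho = -1.0 (exact permutation test, p = 0.000397, adjusted p = 0.00357). Without diabetic animals 6 and 3, which had the ratios farthest from the median, r was -0.96. A correlation at least this strong was found in 22 of the 9520 probe sets tested (0.231%). This relation was looked for after the values were plotted. No correlation was computed over the 5 normal animals. From the lowest to the highest ratio, their Vegfa signals were 916.2, 1063.5, 937.3, 840.3 and 812.2. For Vegfa 1373807_at the relation in diabetic animals was weaker (r = -0.74, exact permutation test, p = 0.0587, adjusted p = 0.176; rho = -0.79, p = 0.0480, adjusted p = 0.216) and r fell in size to -0.35 without the same 2 animals. Of the other members, Flt1 1377113_at ran the other way (r = 0.73, exact permutation test, p = 0.0478, adjusted p = 0.176; -0.52 without the 2 animals), as did Flt1 1370492_a_at (r = 0.72, adjusted p = 0.206 in the exact permutation test; 0.10 without them). Angpt2 had r = -0.60 (adjusted p = 0.255 in the exact permutation test; -0.73 without them), and the remaining 4 had r between -0.07 and 0.51.

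**Figure D2:**
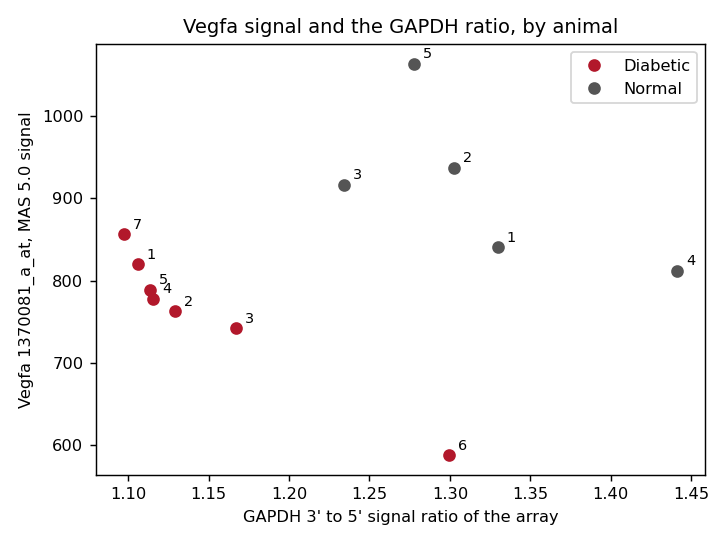
MAS 5.0 signal of Vegfa 1370081_a_at against the GAPDH 3' to 5' ratio of the same array, for 7 diabetic (red) and 5 normal (grey) animals, numbered as in the labels (neither axis starts at 0). Diabetic animal 6, at a ratio of 1.30 and a signal of 588.1, lies among the normal ratios and below all other signals, while the other 6 diabetic animals lie at ratios of 1.10 to 1.17.

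With the GAPDH ratio as a covariate, the log2 change of Vegfa 1370081_a_at was -0.60 and passed (limma, adjusted p = 0.0159). In that fit 288 probe sets were called instead of 16, and with diabetic animal 6 also left out, a setting added after seeing the data, the change was -0.51 (adjusted p = 0.461) and 0 of all probe sets were called, with 761 at an unadjusted p under 0.05. The ratio differed between the groups and only diabetic animal 6 lay within the normal range of 1.23 to 1.44. The beta-actin ratio, which did not show such a difference (exact permutation test, p = 0.920), left the change at -0.26 (adjusted p = 0.193). Diabetic animal 6, lowest for this Vegfa probe set, had the highest beta-actin ratio of all arrays, at 2.85. Normal animal 5, highest for this probe set, came next at 2.75.

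Markers of alveolar epithelium, a main source of VEGF-A, were examined beside Vegfa, and some were lower and some higher on average in diabetic lung. The signal of Ager, the receptor RAGE of type I cells, was 5760.1 to 8473 in diabetic and 8245 to 10515 in normal lung (log2 change -0.24, limma adjusted p = 0.206). Aqp5, a water channel of type I cells, had 1154 to 2466 in diabetic and 2299 to 3050.4 in normal lung (log2 change -0.52, adjusted p = 0.135). Hopx, a regulator expressed by type I cells, averaged 8129 in diabetic and 6924 in normal lung (log2 change 0.23, limma adjusted p = 0.145). Over 10 type I markers 5 changes were above 0 and 5 below, with a median of -0.04. The 3 named had an unadjusted p under 0.05, 1 higher and 2 lower, where 16.6% of all genes did. The summed signal of the 10 was 41387 to 47413 in diabetic and 44558 to 48673 in normal lung. Over 14 type II markers the median was -0.01 and 0 passed in limma. At an unadjusted p under 0.05, 1 was higher and 1 was lower (14.3%). The lower one was Scd, with a mean signal of 587.4 in diabetic and 1202.8 in normal lung (limma adjusted p = 0.111). The higher one was Slc34a2, with a log2 change of 0.17 (limma adjusted p = 0.289). Sftpc, which encodes surfactant protein C, had 21484 to 30073 in diabetic and 22065 to 29964 in normal lung. Their part in the Vegfa values was not tested.

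Kdr, the main VEGF receptor of endothelial cells, did not differ beyond the spread between animals. Its probe set 1367948_a_at had a lowest signal of 4047, a median of 5110.0 and a highest of 6101 in diabetic animals, against 6042, 5249.7, 4844, 5315 and 5287 in normal animals 1 to 5. The diabetic values enclosed the normal ones on both sides, from diabetic animal 2 at the low end to diabetic animal 5 at the high end. The mean was 5075 ± 607 (SD, n = 7) in diabetic and 5347 ± 433 (SD, n = 5) in normal lung, a log2 change of -0.08 (SE 0.09, limma adjusted p = 0.687). The 95% interval of -0.27 to 0.11 leaves room for a diabetic level of 0.831 to 1.08 of normal. The change was -0.03 without diabetic animal 2, -0.04 without normal animal 1 and -0.13 without diabetic animal 5.

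Flt1, the VEGF-A receptor that also exists in a soluble form, was measured by 3 probe sets that did not move together. For 1377113_at the diabetic animals had a lowest signal of 321.2, a median of 579.4 and a highest of 982.1, against 382.4, 568.7, 583.3, 471.2 and 440.9 in normal animals 1 to 5. The diabetic values spread 3.06-fold from lowest to highest and the normal ones 1.53-fold. Its log2 change was 0.14 (SE 0.23, 95% interval -0.35 to 0.63, limma adjusted p = 0.802). The change rested on diabetic animal 6, at 982.1, without which it was -0.0075. The residual SD of this probe set about the group means was 0.47 on the log2 scale, larger than that of 97.1% of the probe sets tested.

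The probe set 1369087_at of Flt1 had 319.2, 387.8 and 558.4 as lowest, median and highest signal in diabetic animals, against 392.4, 412.6, 353.8, 409.8 and 439.3 in normal animals 1 to 5. Its highest animal was diabetic animal 3 and not diabetic animal 6. The log2 change was 0.02 (SE 0.13, 95% interval -0.25 to 0.29, limma adjusted p = 0.960). The dim probe set 1370492_a_at, whose signals lie near the filter at 170.0, had 134.4, 191.3 and 253.9 in diabetic animals and 232.9, 136.7, 189.6, 271.3 and 205.9 in normal animals 1 to 5, with a log2 change of -0.13 (SE 0.18, 95% interval -0.50 to 0.25, adjusted p = 0.765). With 1 animal left out this change lay between -0.27 (without normal animal 2) and -0.019 (without normal animal 4). The deposited values do not say which Flt1 transcripts, membrane-bound or soluble, each probe set detects.

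Angpt2, the ligand of activated endothelium, was lower on average in diabetic lung but did not pass the adjusted threshold. Its probe set 1374207_at had a lowest signal of 216.3, a median of 239.8 and a highest of 282.6 in diabetic animals, against 248.7, 314.9, 273.8, 296.1 and 287.4 in normal animals 1 to 5. Of the 7 diabetic animals 5 lay below every normal animal, and diabetic animals 1 and 7 lay inside the normal range. The mean was 245 ± 25.2 (SD, n = 7) in diabetic and 284 ± 24.8 (SD, n = 5) in normal lung. The log2 change was -0.22 (SE 0.10, 95% interval -0.43 to -0.00269, limma adjusted p = 0.300), and limma's unadjusted p was under 0.05 in 8 of 24 alternative settings. A two-sided exact permutation test gave an unadjusted p of 0.0253.

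Tie1, the receptor that modulates TIE2, was measured by 1389324_at. Its lowest, median and highest signals were 867.6, 925.5 and 1132.5 in diabetic animals, against 1004, 1201, 1134, 992.9 and 1139.7 in normal animals 1 to 5. Diabetic animals 1 to 4 lay below every normal animal and diabetic animals 5, 6 and 7 lay within the normal range. The means were 979.9 ± 107 (SD, n = 7) in diabetic and 1094 ± 91.5 (SD, n = 5) in normal lung, with a log2 change of -0.16 (SE 0.09, 95% interval -0.35 to 0.02, limma adjusted p = 0.366).

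Pecam1, the general endothelial marker, had nearly the same mean in both groups. The diabetic animals had a lowest signal of 822.4, a median of 962.6 and a highest of 1137 for 1371545_at, against 954.5, 1009, 1097, 1013 and 822.6 in normal animals 1 to 5. The log2 change was -0.01 (SE 0.10, limma adjusted p = 0.985), and its 95% interval of -0.22 to 0.21 leaves room for a diabetic level of 0.857 to 1.16 of normal.

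**Figure D3:**
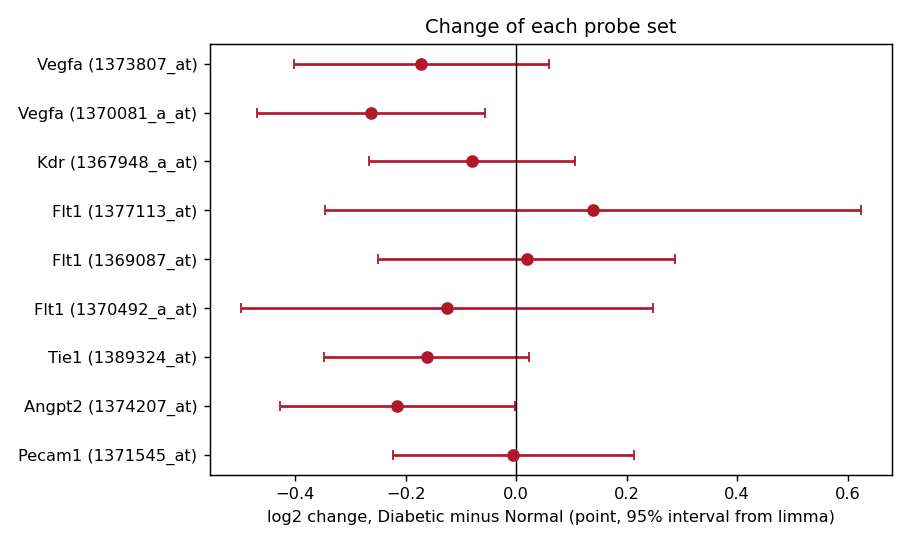
Log2 change in diabetic minus normal lung of the 9 probe sets (points) with the 95% interval from limma (bars). The intervals of Vegfa 1370081_a_at and Angpt2 lie below 0 before adjustment for the number of probe sets, and that of Flt1 1377113_at is the widest of the 9.

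The members were also set against each other across animals, after the mean of each group had been subtracted, to see whether the same animals were high or low. Of 36 pairs of probe sets, 0 reached significance after adjustment for Pearson's r or Spearman's rho in a permutation test within groups (smallest adjusted p = 0.583 and 0.716), and 1 and 2 pairs had an unadjusted p under 0.05. Vegfa 1373807_at and Kdr had r = 0.64 (permutation p = 0.0538) and rho = 0.66 (permutation p = 0.0293) over 12 animals, and r was 0.62 without diabetic animals 5 and 6. Vegfa 1373807_at and Flt1 1377113_at had r = -0.75 (permutation p = 0.0214) and rho = -0.52 (permutation p = 0.122), and r was -0.32 without the same 2 animals, so the relation rested on them. The 2 Vegfa probe sets had r = 0.38 (permutation p = 0.282) and rho = 0.20 (permutation p = 0.539), and the 3 pairs of Flt1 probe sets had r between 0.06 and 0.34. Pecam1 had r between -0.52 and 0.58 with the other probe sets. Values of 1 array share its labelling and scaling.

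**Figure D4:**
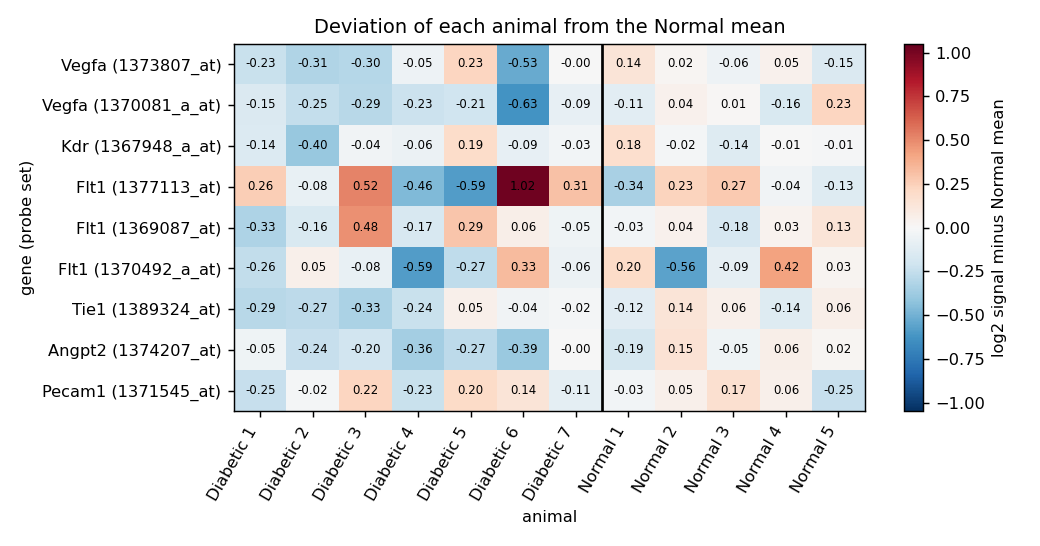
Log2 signal of each animal minus the mean of the 5 normal animals, for the 9 probe sets (rows) in 7 diabetic (left of the line) and 5 normal animals (right), blue where lower and red where higher. Diabetic animal 6 ranges from -0.63 for Vegfa 1370081_a_at to 1.02 for Flt1 1377113_at, and diabetic animal 4 lies below the normal mean in all 9 rows.

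For each member, the genes whose signals followed it most closely over the 12 animals, again without the group means, were found among the 9520 probe sets tested. Kdr was followed by Smarca4, a chromatin remodeller (r = 0.88), Nrp1, a co-receptor of VEGF (r = 0.88), and Prickle2 (r = 0.87). Tie1 was followed by Acvrl1, a BMP receptor of endothelium (r = 0.92), Plvap, a protein of endothelial diaphragms (r = 0.92), and the kinase gene Dyrk2 (r = 0.90). Pecam1 was followed by Ralgds (r = 0.88), Btbd2 (r = 0.85) and Tal1, a transcription factor of blood and endothelial precursors (r = 0.84). Vegfa 1373807_at was followed by Celf2, an RNA-binding protein (r = 0.96), Prkacb, a catalytic subunit of protein kinase A (r = 0.92), and Arfgap1 (r = 0.92). For Flt1 1377113_at these were the small heat shock protein gene Hspb1 (r = 0.94), Rab40c (r = 0.90) and Aebp1 (r = 0.89), and for Angpt2 they were Zfp637 (r = 0.88), Bccip (r = 0.84) and Akip1 (r = 0.84). These are the highest of many correlations over 12 animals and are given as a description.

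Other genes of the pathway were taken from lists, each gene by its brightest probe set. Of 7 further VEGF ligands and receptors, 3 were bright enough to be tested and 0 passed an adjusted p of 0.05 in limma, where 0.199% of all genes passed. At an unadjusted p under 0.05, called for 16.6% of all genes, 1 of the 3 was lower. This was Nrp1, the co-receptor that presents VEGF-A to VEGFR2, with a mean signal of 4211 in diabetic and 5089.8 in normal lung (log2 change -0.29, SE 0.13, adjusted p = 0.260). With the GAPDH ratio as a covariate the median of the 3 turned to 0.06, against -0.17 without it. Vegfc, a ligand of lymphatic vessels, had a log2 change of -0.17, and Vegfb, a ligand of VEGFR1, had -0.00257. Vegfd, Pgf, Flt4 and Nrp2 lay under the filter. Of 9 further genes around the angiopoietins and TIE2, 3 were tested, and Angpt1 and Angpt4 had no probe set named for them. Ptprb, a phosphatase that dampens TIE2, had a log2 change of 0.14. Foxo1, a transcription factor restrained by TIE2 signalling that drives Angpt2, had -0.09, and Klf2, induced by flow, had 0.21. None of these 3 had an unadjusted p under 0.05 in limma.

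Of 26 genes that act downstream of the VEGF receptors, 0 passed the adjusted threshold in limma (median log2 change 0.02). At an unadjusted p under 0.05, 5 were higher and 1 was lower (23.1%, against 16.6% of all genes). Those of smallest p were the adaptor genes Nck1 (0.29, adjusted p = 0.0793) and Crk (0.32), the beta-catenin gene Ctnnb1 (0.23) and the kinase gene Yes1 (0.36). Of 15 genes induced by VEGF or found in sprouting tip cells, 0 passed in limma. By the unadjusted p, 2 were higher and 2 were lower (26.7%). They were Plat, tissue plasminogen activator (0.58, adjusted p = 0.142), and Jag1, a Notch ligand (0.51), against Apln, which encodes the endothelial peptide apelin (-0.66), and its receptor gene Aplnr (-0.39). Aplnr had a mean signal of 156.5 in diabetic lung, under the filter at 170.0, and 200.3 in normal lung. This limits what can be read from the size of its change.

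Oxygen sensing, which controls VEGF-A through hypoxia-inducible factors, was examined in the same way. Of 6 genes, 0 passed in limma and 1, Cited2, an inhibitor of these factors, was lower at an unadjusted p under 0.05 (log2 change -0.20, adjusted p = 0.223). Hif1a had -0.14, Vhl, which targets the factors for degradation, had -0.12, and Epas1, the factor abundant in endothelium, had 0.15 in the probe set used here and -0.20 in its other probe set. Of 19 targets of these factors, 0 passed. By the unadjusted p, 3 were higher and 0 were lower (15.8%, against 16.6% of all genes in either direction). The 3 were Ndrg1 (0.32, adjusted p = 0.0956), Mxi1 (0.35) and Pfkfb3 (0.40). Slc2a1, the glucose transporter GLUT1, had -0.19.

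Endothelial markers other than the members were examined in the same way. Of 29 tested, 0 passed in limma, and 6 were lower and 0 higher at an unadjusted p under 0.05 (20.7%, against 16.6% of all genes), with a median log2 change of -0.06. The summed signal of the 29 was 64898 to 77508 in diabetic and 69424 to 75999 in normal lung. It includes Cav1, which also stands in the type I list. Those of smallest p were Egfl7, a secreted endothelial protein (-0.32, adjusted p = 0.123), Car4, a carbonic anhydrase of alveolar capillaries (-0.43), the ETS factor gene Fli1 (-0.37) and Podxl (-0.18). Of the endothelial list, 11 genes were not among those tested, Cdh5, Cd34, Nos3 and Sox17 among them. Vwf, which encodes von Willebrand factor, had a signal of 2682 to 4002 in diabetic and 2850.4 to 3684 in normal lung. The tight junction gene Cldn5 had 3931 to 7458 in diabetic and 4456 to 5862 in normal lung. Among 11 markers of pericytes and other mural cells, 10 were below 0 (median -0.23), 0 passed in limma, and 4 were lower at an unadjusted p under 0.05: Ndufa4l2 (-0.71, adjusted p = 0.0793), Higd1b (-0.33), Notch3 (-0.23) and Rgs5 (-0.41). Over all genes 53.9% of changes were below 0. Of 16 fibroblast markers tested, 12 were also below 0 (median -0.39), 0 passed in limma, and 9 were lower and 2 higher at an unadjusted p under 0.05. Fbln1, among the 9 lower, had a mean signal of 166.9 in diabetic lung, under the filter at 170.0, and 290.7 in normal lung. The summed signal of the 16 was 36108 to 43803 in diabetic and 43918 to 48342 in normal lung. Among its bright probe sets, Col3a1 averaged 4809 in diabetic and 8739 in normal lung, and Mfap4 5348 and 8714. Inmt went the other way, with 5999 and 2783. The part of the fibroblast signal in the values of the mural markers was not tested.

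Of 11 factors that restrain vessel growth, 0 passed in limma. By the unadjusted p, 3 were higher and 3 were lower (54.5%, against 16.6% of all genes). The 4 of smallest p were Spry1, an inhibitor of receptor kinase signalling (0.44, adjusted p = 0.0701), Timp3, which also blocks VEGF-A binding to VEGFR2 (0.39), Col18a1, the source of endostatin (-0.56), and Serpinf1, which encodes the inhibitor PEDF (-0.59). The mean signal of Serpinf1 was 169.4 in diabetic lung, under the filter at 170.0, and 252.3 in normal lung. This limits what can be read from the size of its change. Of 16 other angiogenic growth factors and receptors, 1 passed, Ccn2, a matrix protein (log2 change 0.81, SE 0.12, limma adjusted p = 0.0184). At an unadjusted p under 0.05, 1 was higher and 6 were lower (43.8%). The genes that were lower included Cxcl12, a chemokine of stromal cells (-0.62, adjusted p = 0.0817), Egfl7, Igf1 (-0.47) and Eng (-0.25). Egfl7 and Eng also stand in the endothelial list and are counted as lower in both. Ccn2 did not pass in the exact permutation test (p = 0.00126, the smallest that 792 splits allow, adjusted p = 0.111). It also did not pass with the GAPDH ratio as a covariate and diabetic animal 6 left out (1.07, limma adjusted p = 0.404). In both settings 0 of all probe sets passed, so neither singles out Ccn2. Ccn2 passed in the other 22 alternatives. These lists were chosen with earlier results of these animals known.

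**Figure D5:**
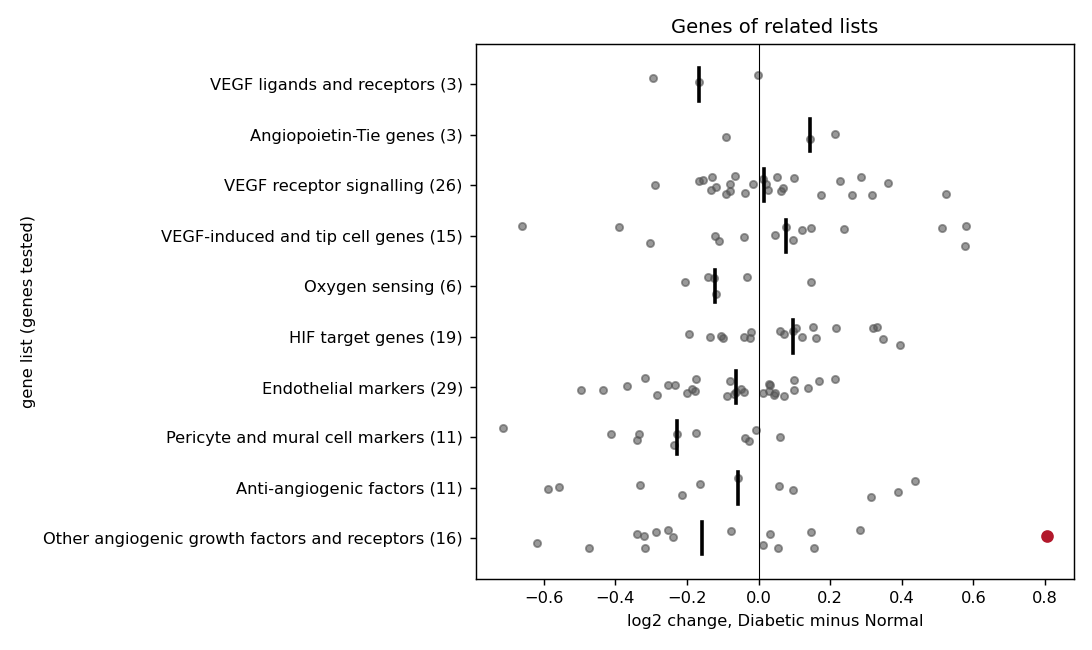
Log2 change in diabetic minus normal lung of the genes (points, 1 probe set each) of 10 related lists, with the number tested in brackets and the median of each list as a black bar. Ccn2, in red at 0.81, is the single point that passed an adjusted p of 0.05, and the medians lie between -0.23 and 0.14.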

How the data were processed

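RNA from the lung of 12 rats was hybridized to RAE 230A arrays. The authors computed the deposited intensity of each probe set with MAS 5.0 and the trimmed mean of every array is 500. Replicates were not pooled. Signals were taken as given, floored at 0.1 (1 value) and transformed to log2. After removal of 57 controls and of the dimmest 40% by mean log2 signal (below 170.0), 9520 probe sets entered limma 3.58.1 in R 4.3.3 (lmFit, then eBayes with its trend option; two-sided; Benjamini-Hochberg). The fit was tested on simulated data. Single values went through an exact permutation test (792 splits of the animals), and correlations with 100000 permutations, or all of them in the diabetic animals alone, in python 3.11.15. The number of arrays limits the precision.

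Gene names came from Entrez IDs for 12748 probe sets, accessions for 2 and the annotation's own symbol for 33, with 312 probe sets naming several genes and 2771 none. The text names all members, the leading genes by p in each list it describes (4 at most), the 3 genes most like each member, and markers. Lists of lymphatic, smooth muscle, macrophage, platelet, red cell and lymphocyte markers were also counted and are not described. The members and lists were chosen with earlier results of these data known. Alternatives were median centring, quantile normalization, adding 22.3 before log2, no or a 20% filter, no trend, weights per array, a block for replicate number, RNA ratios as covariates, the test and leaving out each animal. BAMarray, present and absent calls and RT-PCR were not used here.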

Additional observations from a re-analysis of the deposited data

Results flagged for a closer look

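A sample far from the others of its group was found in 3 of 26 groups of values checked, where chance gives about 1 in 20, and each time it was diabetic animal 6. Its signal of Vegfa 1370081_a_at was 588.1, against 742.6 to 856.7 in the other 6 diabetic animals. Its GAPDH 3' to 5' ratio was 1.30, against 1.10 to 1.17 in the others, and its mean correlation with its own group was 0.948, against 0.963 to 0.971. These 3 values belong to 1 array, and the part of the RNA measure in the Vegfa value was not tested.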

How the results depend on the processing

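The log2 changes of both Vegfa probe sets, Tie1 and Angpt2 stayed below 0 in all 24 alternatives. No member passed an adjusted p of 0.05 in any alternative except Vegfa 1370081_a_at with the GAPDH ratio as a covariate, which made the count of members called 1. The replicate numbers do not pair the animals (r of same-numbered deviations -0.12 to 0.04, 0 of 5 highest with its own number), and with the number as a block 11 of all probe sets passed and 0 members. Of all probe sets, 16 passed at first, 25 after quantile normalization, 7 with no filter, 9 with no intensity trend, 80 with array weights, 288 with the GAPDH ratio, 0 with the GAPDH ratio and diabetic animal 6 left out, 27 with the beta-actin ratio and 0 in the exact permutation test (1531 at an unadjusted p under 0.05). Leaving out 1 animal gave 2 (normal animal 2 or 4) to 30 (diabetic animal 6). Some directions turned. Kdr was 0.00293 with the GAPDH ratio and diabetic animal 6 left out. Flt1 1377113_at was -0.028 with array weights, -0.070 with the block, -0.072 with the GAPDH ratio and diabetic animal 6 left out, and -0.0075 to 0.26 with 1 animal left out. Flt1 1369087_at was -0.013 with array weights and -0.058 to 0.076 with 1 animal left out. Flt1 1370492_a_at was 0.38 with the GAPDH ratio and 0.39 with diabetic animal 6 also left out, and Pecam1 was 0.14 and 0.12 in the same fits and -0.067 to 0.037 with 1 animal left out. The cause was not tested. The unadjusted p of Vegfa 1370081_a_at was under 0.05 in 23 of 24 alternatives. Signals of Flt1 1370492_a_at near the filter limit what can be read from it, and the same holds for Serpinf1, Aplnr and Fbln1. Of the recomputed medians of the related lists, 10 moved beyond the spread, all with the GAPDH ratio as a covariate, some of them with diabetic animal 6 also left out. The median of the endothelial markers moved only with that animal also left out, to -0.22 from -0.06. The beta-actin setting and the GAPDH setting with diabetic animal 6 left out were chosen after seeing the data.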
